A study of Bos taurus with 18 samples.

Results

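The mitochondrial respiratory chain subunits are the proteins that build respiratory complexes I to IV and the ATP synthase, which is complex V. Members were taken by gene symbol from probe sets that the platform annotation gave a single symbol. A symbol qualified when it began with NDUFA, NDUFB, NDUFC, NDUFS or NDUFV and a digit, or with UQCR, COX4 to COX8, ATP5F1, ATP5M or ATP5P. NDUFAB1 and the SDHA to SDHD genes were added by name, and the brightest probe set stood for each symbol. This gave 76 of the 18010 genes on the array with such a probe set. They comprised 35 genes of complex I, 3 of complex II, 7 of complex III, 15 of complex IV and 16 of complex V. The rule itself used symbols, and no measured value except the brightness of a probe set, which decided for ATP5F1E. The rule was set, however, with earlier results of these data known.

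Complexes I and II pass electrons from NADH and succinate to ubiquinone, complex III passes them on to cytochrome c, and complex IV hands them to oxygen. Complexes I, III and IV pump protons across the inner membrane, and the ATP synthase uses the proton gradient to make ATP. Niacin is a precursor of NAD, whose reduced form NADH is the substrate of complex I. The liver of an early-lactating cow depends on this chain to oxidise large amounts of fatty acids released from body fat. Most subunits are encoded in the nucleus, and the subunits encoded in mitochondrial DNA had no single-symbol probe set here (0 measured).

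Liver RNA of 18 multiparous Holstein cows was hybridised to Affymetrix Bovine Gene 1.0 ST arrays, with 1 array per cow. The niacin group (n = 9) received silage-based mixed rations with niacin in a rumen-protected form (NiaShure) at 79 mg per kg body weight, of which 47 mg per kg was stated to reach the duodenum and 31 mg per kg to be absorbable. Feeding started 3 weeks before expected calving, and the biopsy was taken 1 week after calving. The control group (n = 9) had the same rations without the supplement. Of 11 cows with RNA in each group, the submitters left out the 2 with the lowest RNA integrity number, which was 7.2 ± 0.5 (SD) in the 18 cows used.

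Values are log2 units as deposited after RMA, the normalization that brings all arrays to a like distribution, so a difference of 1 is a doubling. The number of arrays limits their precision. Array medians lay between 5.57 and 5.72, and arrays correlated at r = 0.972 to 0.990 over all probe sets in 153 pairs. Hepatocyte markers were bright in both groups, and albumin (ALB) averaged 13.44 in niacin and 13.45 in control cows. The score of a list is its mean log2 value per cow. The leukocyte marker score was 6.86 ± 0.14 in niacin and 6.71 ± 0.13 in control cows (SD, n = 9 each), with ranges of 6.62 to 7.05 in niacin and 6.48 to 6.85 in control cows. Of its 30 measured genes, 8 were higher in niacin cows at an unadjusted limma p under 0.05 (3.34% of all probe sets were) and 0 were lower. S100A8, a gene of that list, averaged 4.59 in niacin and 4.24 in control cows. It thus passed the limit of 4.35 on dim probe sets, described below, only through the niacin cows. Its part in the list, the score and the leukocyte covariate used below is therefore no support for a difference. The hepatocyte marker score was 11.71 ± 0.10 in niacin and 11.82 ± 0.07 in control cows, with 4 of 13 genes lower at that p (4.41% of all probe sets were). In bulk tissue, fewer cells of a type and less RNA per cell cannot be told apart.

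Of the 76 members, 72 passed the limit on dim probe sets, a mean of 4.35 over the 18 arrays that left out the lowest share of 0.25 of all probe sets. NDUFB4, a membrane-arm subunit of complex I, averaged 3.10 in niacin and 3.22 in control cows. NDUFA4L2, a relative of NDUFA4 known in human cells to be induced by low oxygen, averaged 3.97 in niacin and 4.14 in control cows. COX7B, a common complex IV subunit, averaged 3.39 in niacin and 3.19 in control cows, and its testis form COX7B2 averaged 3.10 in niacin and 3.01 in control cows. These 4 were not tested. A further 7 symbols that fit the choice (ATP5MK, COX5B, COX6B1, NDUFA2, NDUFB8, SDHC and UQCRC2) were only on probe sets with several symbols and are not members.

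The first comparison asked whether the supplement was accompanied by a difference in subunit mRNA. No member differed between the groups beyond the spread of the cows after adjustment over all probe sets. Of the 72 tested members, 0 differed at an adjusted p under 0.05 in limma's moderated test (Benjamini-Hochberg over 18250 probe sets), where 0% of all probe sets did. The adjusted p of the members lay between 0.642 and 0.998. At an unadjusted limma p under 0.05, 1 of 72 members (1.39%) passed, against 7.74% of all probe sets in either direction. That member, COX6B2, was higher in niacin cows, as were 3.34% of all probe sets at that p. The share of members was thus below the background. An exact permutation test over all splits of the cows into 9 and 9 gave 0 adjusted calls. It put 1 of 72 members (1.39%), NDUFV3, past an unadjusted p of 0.05, against 1375 of the 18250 probe sets tested.

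The differences were small as well as uncalled. Niacin minus control was above 0 for 43 members and below 0 for 29, with a median of 0.03 against 0.01 over all probe sets tested. It was within 0.1 log2 of 0 for 52 members and within 0.2 for 71. All 72 of the 95% intervals lay within a 1.5-fold change in either direction (0.585 log2), and 42 lay within 1.2-fold (0.263 log2). The lowest bound was -0.49 for NDUFB1 and the highest was 0.50 for UQCRB. For all 72 members the ranges of the groups overlapped. That count was not made over all probe sets, so it is not a result particular to the members.

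**Figure D1:**
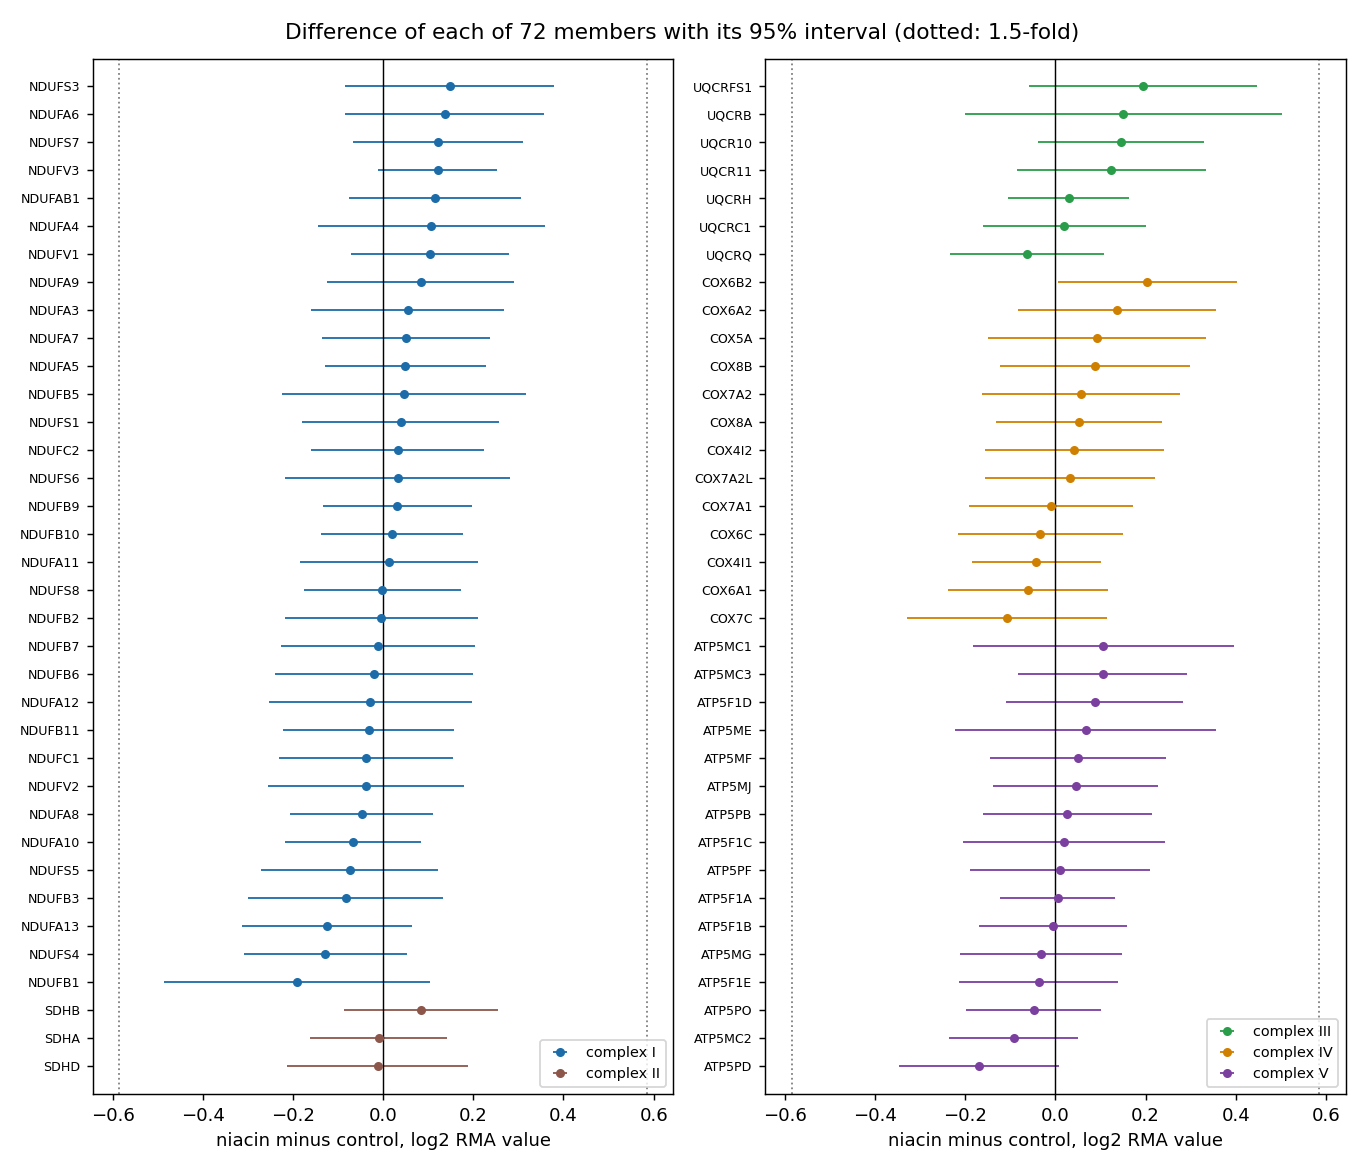
Each of the 72 tested members is shown with its niacin minus control difference in log2 RMA value (point) and its 95% interval from limma (line), coloured by complex and sorted within it. All intervals lie between the dotted lines at a 1.5-fold change, and the interval of COX6B2 alone leaves out 0.

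Summed by complex, the groups also lay close together. The score of complex I was 8.09 ± 0.12 in niacin and 8.08 ± 0.16 in control cows (SD, n = 9 each), a difference of 0.01. Complex II had 9.97 ± 0.11 in niacin and 9.95 ± 0.15 in control cows, a difference of 0.02. Complex III had 8.32 ± 0.18 in niacin and 8.24 ± 0.16 in control cows, a difference of 0.09 that was 0.03 without niacin 15 and 0.12 without niacin 19. That difference was the largest of the 5 and under the SD of either group. With the leukocyte score as a covariate it was 0.16, slightly above the control SD. Complex IV had 7.34 ± 0.11 in niacin and 7.30 ± 0.10 in control cows, a difference of 0.03 that was 0.00 without niacin 15. Complex V had 9.38 ± 0.12 in niacin and 9.37 ± 0.14 in control cows, a difference of 0.01. Over all 72 members the score was 8.34 ± 0.12 in niacin and 8.32 ± 0.14 in control cows. Although the niacin mean was higher by 0.02, 2 of 9 niacin cows exceeded the control median, and without niacin 15 the difference was -0.01. No p was computed for these scores, because the members were chosen with earlier results of these data known.

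**Figure D2:**
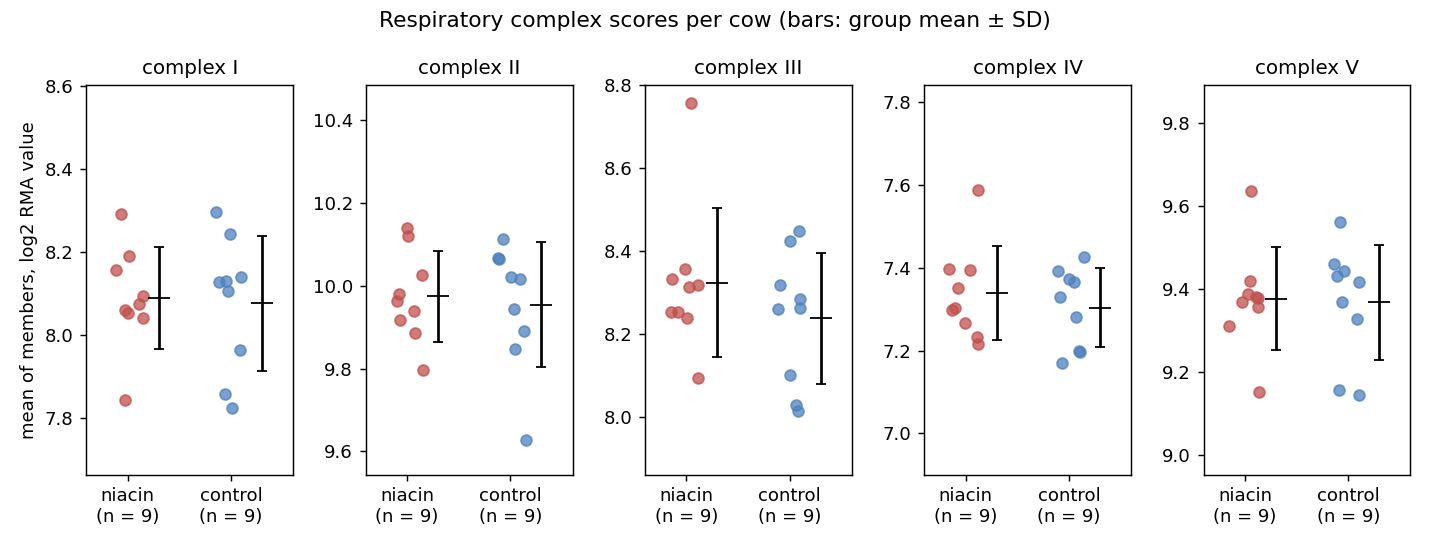
Scores of the 5 complexes (mean log2 RMA value of the tested members) are plotted per cow, with niacin cows left of control cows and the group mean ± SD beside each group. The groups overlap in every panel, and niacin 15 stands at the top of complexes III, IV and V.

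In complex I, the 6 core subunits carry the flavin, the iron-sulfur clusters and the quinone site, and 4 of them were above 0 and 2 below. NDUFS3, a core subunit of the quinone-binding part, ranged from 7.71 to 8.74 in niacin cows (median 8.05), against 7.53 to 8.19 in control cows (median 8.01). The highest value was that of niacin 15, and the groups overlapped. The difference was 0.15 ± 0.11 (SE; limma adjusted p = 0.798), and 0.07 without that cow. NDUFV2, an iron-sulfur subunit next to the flavin and the brightest member of complex I, ranged from 9.65 to 10.20 in niacin cows (median 10.00), against 9.48 to 10.22 in control cows (median 10.07). Niacin cows lay inside the control range, and the difference was -0.04 ± 0.10 (SE).

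The 27 accessory subunits of complex I, which surround the core, had 14 differences above 0 and 13 below. NDUFV3, a small subunit beside the flavoprotein, ranged from 7.43 to 7.57 in niacin cows (median 7.48), against 7.14 to 7.60 in control cows (median 7.39). All 9 niacin cows exceeded the control median, while controls 1, 16 and 20 lay within or above the niacin range. The niacin mean was 7.49 ± 0.05 and the control mean 7.37 ± 0.15 (SD, n = 9 each), and the SD of the niacin cows was the lower. The difference of 0.12 ± 0.06 (SE) had an unadjusted limma p of 0.0701 (adjusted p = 0.665) and an exact permutation p of 0.0290, two-sided.

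NDUFS4, a subunit of the peripheral arm whose loss causes complex I deficiency in humans and mice, ranged from 8.41 to 8.86 in niacin cows (median 8.57), against 8.41 to 9.06 in control cows (median 8.69). Higher than the control median were 2 of 9 niacin cows, and the difference was -0.13 ± 0.09 (SE; limma adjusted p = 0.768). NDUFA13, also known as GRIM-19, had a difference of -0.12 ± 0.09 (SE; limma adjusted p = 0.790), with equal medians of 7.74 in niacin and 7.74 in control cows. NDUFB1, a small membrane-arm subunit, ranged from 5.92 to 6.97 in niacin cows (median 6.49), against 6.29 to 6.98 in control cows (median 6.59). Niacin 3, niacin 19 and niacin 33 were below every control cow, and the difference was -0.19 ± 0.14 (SE; limma adjusted p = 0.793). NDUFC2, a membrane-arm subunit, averaged 7.66 in niacin and 7.63 in control cows, and its difference of 0.03 turned to -0.02 without niacin 15. NDUFA4 is placed with complex I by its symbol, although its protein is now counted with complex IV. It ranged from 8.30 to 9.17 in niacin cows and from 8.19 to 9.03 in control cows, a difference of 0.11 ± 0.12 (SE).

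Complex II, which is also the succinate dehydrogenase of the citric acid cycle, had 3 tested members. SDHA, its flavoprotein, ranged from 10.06 to 10.36 in niacin cows (median 10.17), against 9.85 to 10.49 in control cows (median 10.23). Niacin cows lay inside the control range, and the difference was -0.01 ± 0.07 (SE). SDHB, the iron-sulfur subunit, averaged 10.39 ± 0.12 in niacin and 10.31 ± 0.20 in control cows (SD), a difference of 0.08 ± 0.08 (SE; limma adjusted p = 0.854). SDHD, a membrane anchor, had a difference of -0.01 ± 0.10 (SE).

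In complex III, 6 of 7 differences were above 0, and 0 of 7 passed an unadjusted limma p of 0.05, against 7.74% of all probe sets. UQCRFS1, the Rieske iron-sulfur protein that takes electrons from ubiquinol, ranged from 6.34 to 7.22 in niacin cows (median 6.52), against 5.79 to 6.80 in control cows (median 6.41). Niacin 15 was above every control cow, and control 12, control 36 and control 20 were below every niacin cow. The difference was 0.19 ± 0.12 (SE; limma adjusted p = 0.736). It was 0.12 without niacin 15 and 0.35 with the leukocyte covariate. UQCR10, a small subunit, ranged from 9.46 to 10.10 in niacin cows (median 9.64), against 9.25 to 9.81 in control cows (median 9.60). Its difference was 0.15 ± 0.09 (SE; limma adjusted p = 0.725). UQCRB, a ubiquinone-binding subunit, ranged from 7.30 to 8.99 in niacin cows (median 7.75), against 7.43 to 8.25 in control cows (median 7.71). Niacin 15 and niacin 8 were above every control cow and niacin 19 below every one. UQCRB had the largest within-group SD of all members, 0.40, and its difference of 0.15 ± 0.17 (SE) was 0.01 without niacin 15 and 0.30 with the leukocyte covariate. The core protein UQCRC1 averaged 8.95 in niacin and 8.93 in control cows, and the hinge protein UQCRH averaged 7.43 in niacin and 7.40 in control cows.

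Complex IV has common subunit forms used in liver and most tissues, and tissue forms known from other organs. Of the 7 common forms, 3 differences were above 0 and 4 below, and their score was 8.03 ± 0.14 in niacin and 8.04 ± 0.15 in control cows. COX7C ranged from 5.97 to 6.49 in niacin cows (median 6.27), against 5.94 to 6.90 in control cows (median 6.37). Niacin cows lay inside the control range, and the difference was -0.11 ± 0.11 (SE; limma adjusted p = 0.857). COX8A, the common form of subunit 8 and the brightest member of complex IV, averaged 9.98 ± 0.16 in niacin and 9.92 ± 0.21 in control cows (SD).

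The 5 tissue forms had a score of 5.95 ± 0.17 in niacin and 5.86 ± 0.16 in control cows, with 4 of 5 differences above 0. COX6B2, the form of subunit 6B known from testis, ranged from 5.89 to 6.67 in niacin cows (median 6.19), against 5.80 to 6.29 in control cows (median 6.08). Niacin 39, niacin 15, niacin 40 and niacin 19 were above every control cow, and the lowest niacin cow was inside the control range. Its difference of 0.20 ± 0.10 (SE, 95% interval 0.00 to 0.40) had an unadjusted limma p of 0.0451 (adjusted p = 0.642) and an exact permutation p of 0.0522, two-sided. COX6A2, the heart and skeletal muscle form of subunit 6A, ranged from 6.76 to 7.37 in niacin cows (median 7.11), against 6.48 to 7.24 in control cows (median 6.98). Niacin 19, niacin 39 and niacin 40 were above every control cow. The difference was 0.14 ± 0.11 (SE; limma adjusted p = 0.801). The lung form COX4I2 had a difference of 0.04, the muscle form COX7A1 of -0.01 and COX8B, a muscle and brown fat form in rodents, of 0.09. Of the adipocyte markers, 3 of 7 passed the limit on dim probe sets (PLIN1, CIDEC and LPL), and ADIPOQ, LEP, FABP4 and UCP1 did not. Of the muscle markers, 6 of 10 passed it (ACTA1, MYH7, CKM, MB, TNNC1 and TNNT3), and MYH1, MYH2, MYL1 and PVALB did not. ACTA1, the brightest of them, averaged 6.25 in niacin and 6.22 in control cows.

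COX7A2L, a relative of subunit 7A that takes part in joining complexes III and IV into supercomplexes, ranged from 9.20 to 9.74 in niacin cows (median 9.42), against 9.08 to 9.66 in control cows (median 9.48). The ranges overlapped, and the difference was 0.03 ± 0.09 (SE).

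Complex V had 10 differences above 0 and 6 below. The 5 subunits of the catalytic head and central stalk differed by -0.04 to 0.09. ATP5F1A, which forms the catalytic head with ATP5F1B, had the smallest within-group SD of all members, 0.10, with means of 9.75 in niacin and 9.74 in control cows. ATP5F1B averaged 10.19 in niacin and 10.20 in control cows. ATP5F1E, the epsilon subunit of the central stalk and the brightest member of complex V, ranged from 10.21 to 10.57 in niacin cows (median 10.46), against 10.09 to 10.77 in control cows (median 10.49). Its difference was -0.04 ± 0.09 (SE), and 0.03 as the mean of both its probe sets.

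Subunit c, which forms the rotating ring, is encoded by 3 genes that give the same mature protein. ATP5MC1 and ATP5MC3 each differed by 0.11, and with 1 cow left out by as little as 0.02 and 0.04. ATP5MC2 differed by -0.09 ± 0.07 (SE; limma adjusted p = 0.794). ATP5MC2 ranged from 8.75 to 9.14 in niacin cows (median 8.93), against 8.86 to 9.19 in control cows (median 9.08), and 8 of 9 niacin cows were below the control median. In the peripheral stalk, which holds the head still, ATP5PD (subunit d) ranged from 9.22 to 9.93 in niacin cows (median 9.58), against 9.46 to 9.96 in control cows (median 9.74). Again 8 of 9 niacin cows were below the control median, while niacin 15 equalled control 1. The difference was -0.17 ± 0.09 (SE), with an unadjusted limma p of 0.0616 (adjusted p = 0.663) and an exact permutation p of 0.0620. The other stalk subunits ATP5PB, ATP5PF and ATP5PO differed by 0.03, 0.01 and -0.05.

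The second comparison set the complexes against each other across cows, with each group's mean subtracted. Cows differed from each other more than the groups did, and most members moved together. The member score spanned 0.49 log2, or 1.405-fold, between the highest and the lowest of the 18 cows. Among niacin cows it was highest in niacin 15 (8.59, with 64 of 72 members above the group mean) and lowest in niacin 19 (8.14, with 62 below). Among control cows it was highest in control 1 (8.48, with 64 above) and lowest in control 12 (8.09, with 60 below) and control 23 (8.12, with 67 below). Both groups thus held high and low cows.

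**Figure D3:**
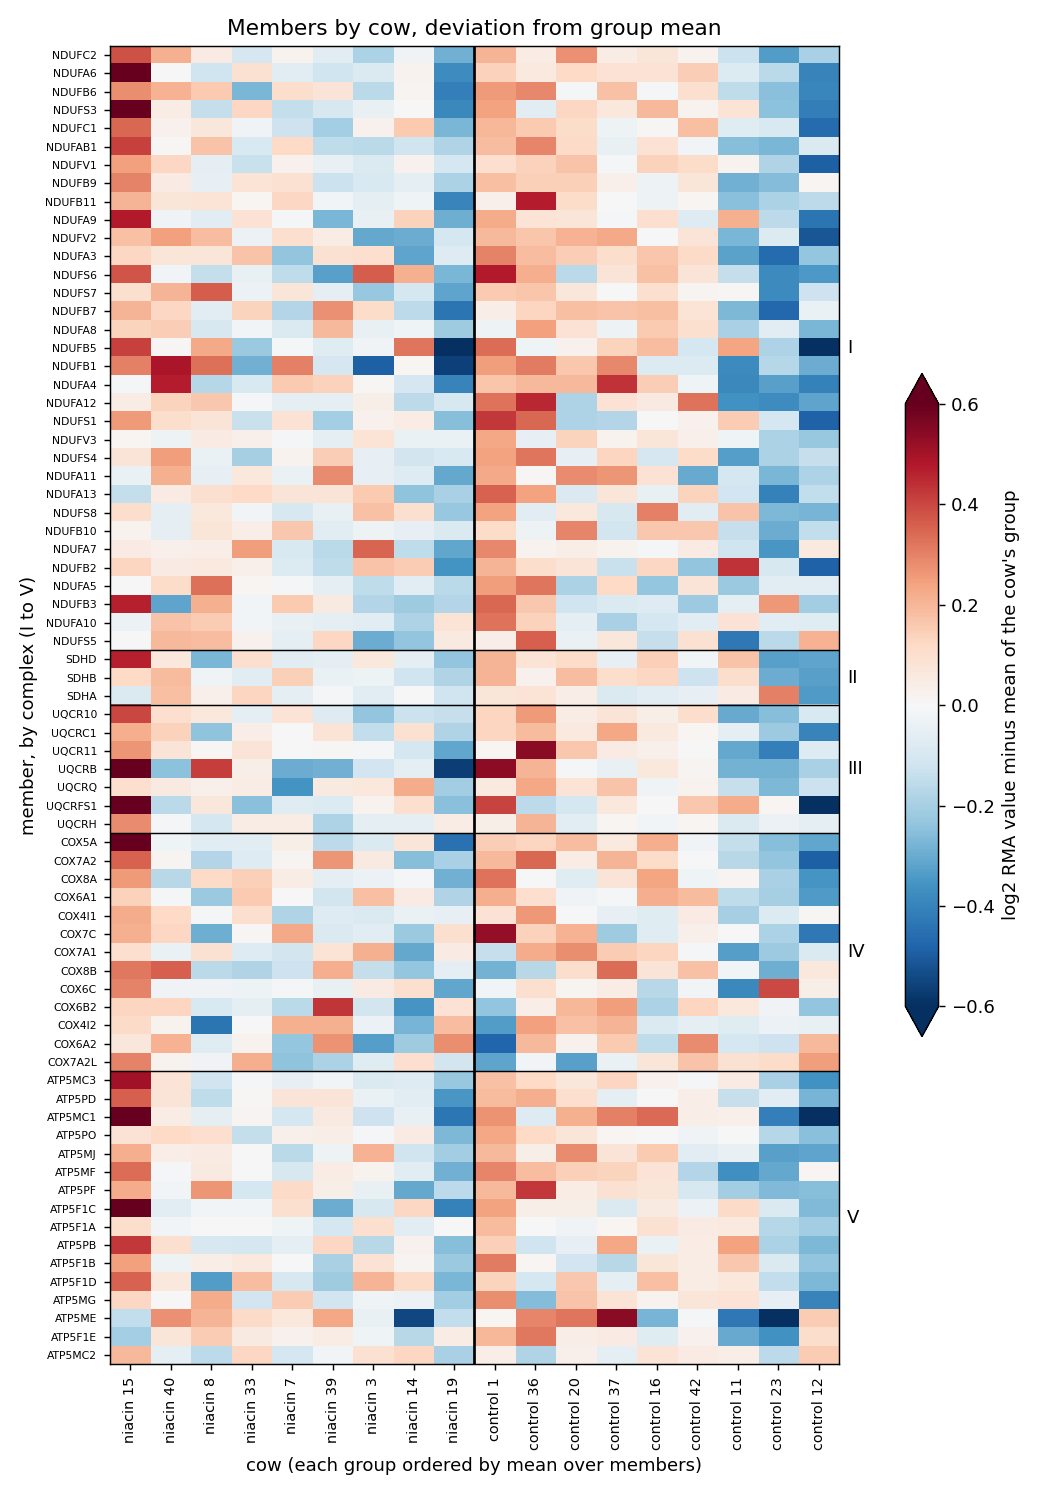
Rows are the 72 tested members by complex and columns the 18 cows, niacin left and control right, each group ordered by its member score. Colour gives the log2 RMA value minus the mean of the cow's group, limited to 0.6 in either direction. Niacin 15 and control 1 are red, and niacin 19, control 12 and control 23 blue, across most rows of complexes I, III and V.

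Over the 2556 pairs of members, the median Pearson r was 0.43 and 87.9% of pairs were above 0, against a median of -0.00 over all pairs of probe sets tested. The points share arrays, normalization and liver sample, so these correlations are descriptions and carry no p. Within complexes the median pair r was 0.47 for complex I, 0.18 for complex II, 0.55 for complex III, 0.20 for complex IV and 0.52 for complex V. Measured in the same way it was 0.45 for proteasome subunits, 0.40 for citric acid cycle genes, 0.32 for mitochondrial ribosomal proteins, 0.32 for cytosolic ribosomal proteins and 0.07 for the SLC25 mitochondrial carriers. Proteasome subunits thus had a median pair r like that of the respiratory members.

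The scores of the complexes followed each other. Complexes I and V had r = 0.95 (Spearman's rho 0.92), with 0.95 within niacin cows and 0.95 within control cows, and 0.92 without the 2 cows farthest from the median. Complexes I and III had r = 0.90 (rho 0.88, 0.87 without 2 cows), and complexes III and V had r = 0.90 (rho 0.86, 0.85 without 2 cows). Complex II followed complex V at r = 0.83 (rho 0.78) and complex I at 0.78 (rho 0.72). Its links to complex III (r = 0.66, rho 0.54) and complex IV (r = 0.58, rho 0.52) had a lower r, and their rho was 0.27 and 0.32 without 2 cows. Complex IV followed complex III at r = 0.78 (rho 0.70), complex V at 0.73 (rho 0.71) and complex I at 0.69 (rho 0.67). All 10 pairs of complexes are given here.

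**Figure D4:**
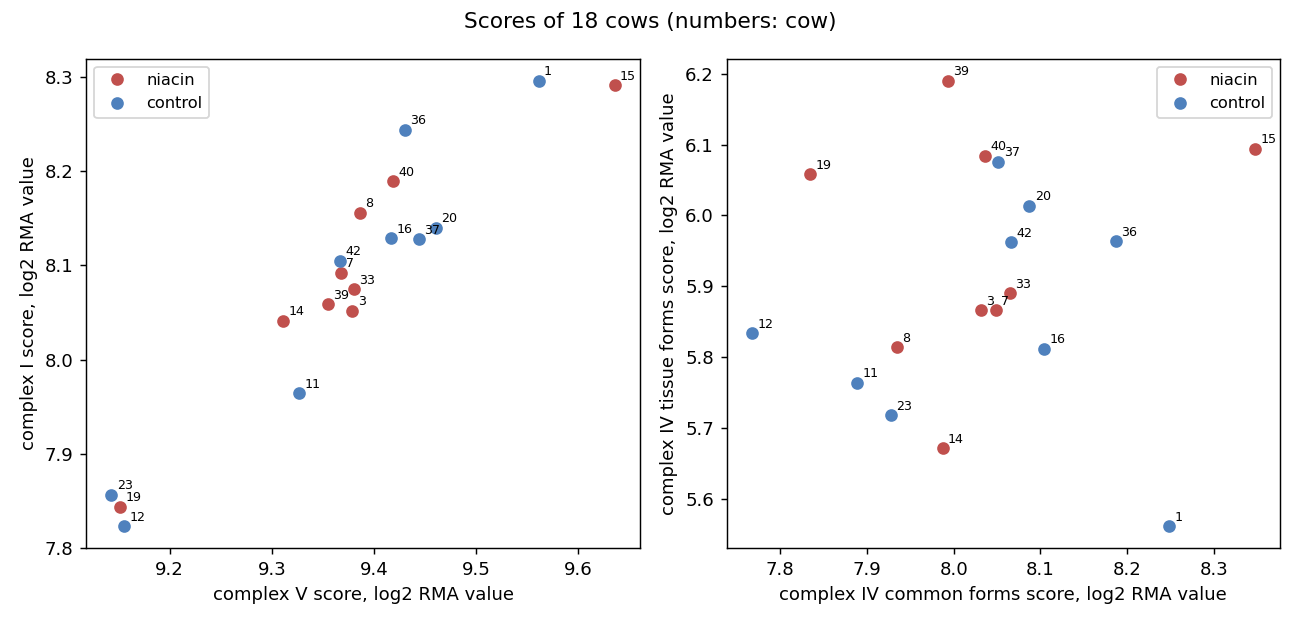
Each point is a cow, with its number beside it. On the left, the complex I score rises with the complex V score (log2 RMA value on both axes), from control 12, niacin 19 and control 23 up to control 1 and niacin 15, with both groups mixed along the line. On the right, the score of the complex IV tissue forms shows no such relation to that of the common forms over all 18 cows. With group means subtracted, r between them was 0.10, and 0.43 without niacin 39 and control 1.

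Each member was then set against the mean of the other 71 members over the 18 cows. The r was at least 0.7 for 31 of 72 members (43.1%), against 132 of 18178 other probe sets (0.73%), and its median over members was 0.69. The highest were ATP5MC3, a subunit c gene (0.90), NDUFC2 of complex I (0.89) and ATP5PD of the peripheral stalk (0.87). NDUFC2 ranged from 7.37 in niacin 19 to 8.04 in niacin 15 among niacin cows, and from 7.29 in control 23 to 7.90 in control 20 among control cows. ATP5MC3 ranged from 8.88 in niacin 19 to 9.61 in niacin 15, and from 8.64 in control 12 to 9.18 in control 1. In niacin cows the extremes of both genes fell on the same animals.

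A minority of members did not follow the rest, and 11 had r below 0.3. The lowest were COX7A2L (-0.17), COX6A2 (-0.14) and COX4I2 (0.02). SDHA, at 0.15, stood apart from SDHB (0.76) and SDHD (0.78) of the same complex. ATP5MC2, at 0.19, stood apart from the other genes of subunit c, ATP5MC1 (0.86) and ATP5MC3 (0.90). Among control cows COX7A2L was lowest in control 20 and control 1 (9.08 and 9.09), and over both groups it was highest in niacin 15 (9.74). Dim members had r from 0.02 to 0.60 (7 with a mean below 6.5 log2), and the other 65 had r from -0.17 to 0.90.

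**Figure D5:**
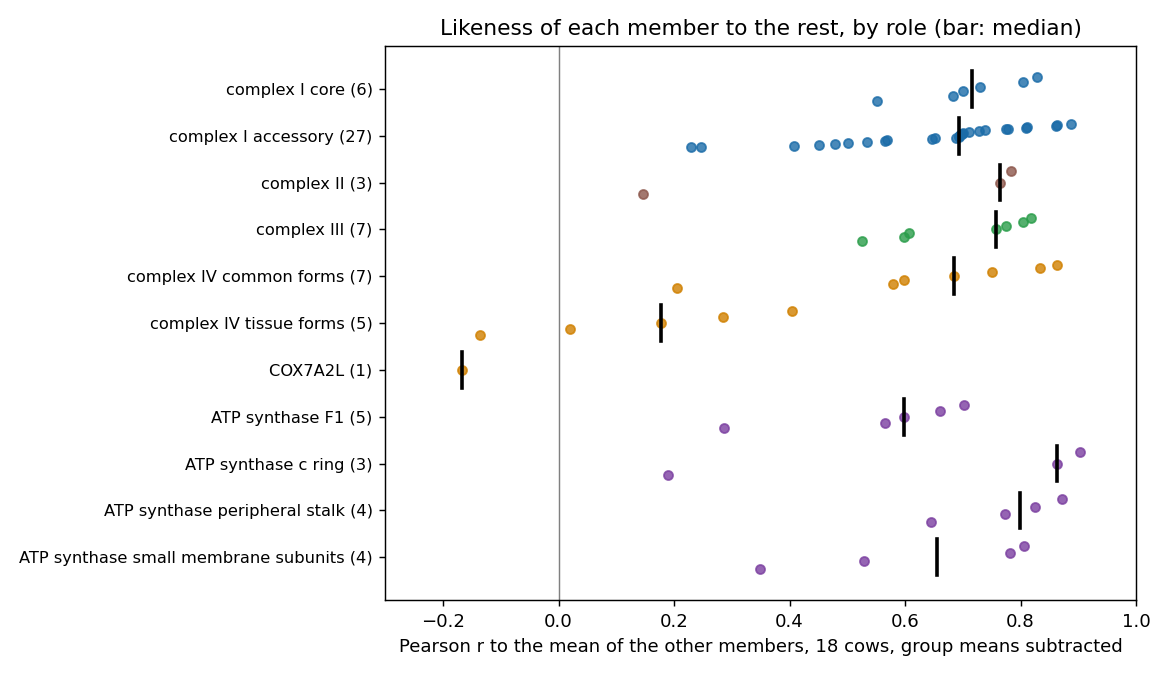
Each point is a tested member, placed by its Pearson r to the mean of the other members over 18 cows with group means subtracted, and grouped by role with the group's median as a bar. Most members of complexes I, III and V lie between 0.5 and 0.9, and the complex IV tissue forms and COX7A2L lie at or below 0.40.

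Complex IV thus held members of both kinds. The 7 common forms had r from 0.20 (COX6C) to 0.86 (COX5A), and their score followed that of all members outside complex IV at r = 0.92 (rho 0.87, 0.86 without 2 cows). The 5 tissue forms had r from -0.14 to 0.40 to the other members, but a median pair r of 0.50 among themselves. Their score had r = 0.10 to that of the common forms (rho 0.19, 0.43 without 2 cows). It was highest in niacin 39 (6.19) and lowest in control 1 (5.56), the control cow with the highest member score. The same score followed that of 6 muscle markers at r = 0.82 (rho 0.85, 0.78 without 2 cows). Both scores held dim probe sets. The muscle score averaged 5.12 in niacin and 5.10 in control cows, below the array medians of 5.57 to 5.72. Of the tissue forms, COX8B (5.16) and COX4I2 (5.42) averaged below those medians over all cows, and COX7A1 (5.77), COX6B2 (6.14) and COX6A2 (7.02) above. The tissue form score also followed, at r = -0.82 (rho -0.83, -0.76 without 2 cows), the slope of each array's values over gene length. The part of either measure in the result was not tested. The slope ranged from -0.07 to 0.03 in niacin and from -0.04 to 0.06 in control cows, in log2 per 10-fold of gene span.

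Cell type markers were set against the member score in the same way. The leukocyte score had r = -0.34 to it (rho -0.22), which was 0.01 without niacin 15 and control 12. The hepatocyte score had r = 0.41 (rho 0.32, 0.34 without those cows), and the endothelial score r = -0.48 (rho -0.53, -0.23 without those cows). Within the groups, r for the hepatocyte score was 0.19 in niacin and 0.69 in control cows. For the endothelial score it was -0.14 in niacin and -0.80 in control cows, and for the red cell score 0.07 in niacin and -0.66 in control cows. With the leukocyte score as a covariate, the difference in the member score was 0.07. The slope over gene length had r = -0.32 to the member score. The members' genes are short, with a median span of 7073 bases against 21086 for all tested probe sets, and with that trend removed the difference in the member score was 0.00. The part of these measures in the members' differences was not tested. The other cell type scores differed between groups by less than the larger of the group SDs. They were 6.64 in niacin and 6.62 in control cows for stellate cells and fibroblasts, 8.15 in niacin and 8.12 in control cows for endothelium, and 5.68 in niacin and 5.76 in control cows for bile duct. They were 5.37 in niacin and 5.11 in control cows for red cells. Niacin 8 alone was at 7.23 there, the other niacin cows at 4.96 to 5.26, and without niacin 8 the niacin mean was 5.14. The scores were 5.12 in niacin and 5.10 in control cows for muscle, and 5.27 in niacin and 5.36 in control cows for adipocytes. Over cows, the r to the member score was 0.24 for muscle, 0.07 for bile duct, 0.05 for adipocyte, -0.12 for red cell and -0.26 for stellate and fibroblast markers.

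Of the remaining genes of the pathway, 0 passed an adjusted limma p of 0.05. Assembly factors help build the complexes, and across the 5 lists 1 of 60 tested genes passed an unadjusted limma p of 0.05, against 7.74% of all probe sets. That gene, UQCC4, a complex III assembly factor, averaged 7.03 ± 0.16 in niacin and 6.76 ± 0.12 in control cows (SD), a difference of 0.27 ± 0.07 (SE; 95% interval 0.11 to 0.42, exact permutation p = 0.00197, limma adjusted p = 0.453). The other factors with the smallest p in their lists were not past it. For complex I they were FOXRED1 (-0.14) and NUBPL (-0.20), for complex II SDHAF3 (-0.23) and SDHAF2 (0.08), and for complex III BCS1L (0.12), each value the niacin minus control difference in log2. For complex IV they were CMC1 (-0.25) and COA8 (-0.17), and for complex V ATPAF1 (-0.14) and ATPAF2 (0.08). Among 18 electron carrier genes, 1 passed an unadjusted limma p of 0.05, against 7.74% of all probe sets. That gene was PDSS1, which starts the ubiquinone side chain, with 4.54 in niacin and 4.32 in control cows. Its difference was 0.23 ± 0.10 (SE; exact permutation p = 0.0355, limma adjusted p = 0.603). The control mean of PDSS1 was below the limit of 4.35 on dim probe sets. PDSS1 thus passed that limit only through the niacin cows, and its p is no support for a difference. COQ6, a hydroxylase of the ubiquinone ring, differed by -0.19 ± 0.11 (SE). Cytochrome c, CYCS, differed by 0.23 ± 0.15 (SE) and cytochrome c1, CYC1, by 0.21 ± 0.14 (SE), neither past an unadjusted limma p of 0.05. Cytochrome c1 is itself a subunit of complex III, but its symbol fell outside the choice of members. CYCS and CYC1 followed the member score over cows at r = 0.79 and 0.81.

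Of 22 tested regulators of mitochondrial biogenesis, 1 passed an unadjusted limma p of 0.05, against 7.74% of all probe sets. That gene, lower in niacin cows as were 4.41% of all probe sets, was TFB1M, which methylates mitochondrial ribosomal RNA. It had 6.30 ± 0.19 in niacin and 6.53 ± 0.22 in control cows (SD), a difference of -0.23 ± 0.10 (SE; limma adjusted p = 0.576). YY1, a transcription factor, differed by 0.16 ± 0.08 (SE; limma adjusted p = 0.651). The unadjusted exact permutation p was 0.0302 for TFB1M and 0.0398 for YY1. By that test 1375 of the 18250 probe sets tested were under 0.05. The coactivator PPARGC1A differed by -0.12 ± 0.20 (SE), with an SD of 0.59 in niacin and 0.33 in control cows. TFAM, which packages mitochondrial DNA, differed by -0.02, and the factors NRF1, GABPA and ESRRA, known to act on promoters of respiratory genes, by -0.12, -0.14 and 0.09. Over cows PPARGC1A and TFAM followed the member score at r = 0.63 each, and NRF1 at -0.38. Of 19 citric acid cycle genes, 0 passed an unadjusted limma p of 0.05, against the same 7.74% of all probe sets. Citrate synthase, CS, had the smallest p, with 7.00 ± 0.50 in niacin and 6.70 ± 0.16 in control cows (SD), a difference of 0.30 ± 0.16 (SE; limma adjusted p = 0.664). SUCLG2, a subunit of succinyl-CoA ligase, differed by -0.14 ± 0.08 (SE; limma adjusted p = 0.685), and no niacin cow exceeded the control median.

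As lists, electron carriers (r = 0.85, rho 0.86) and complex IV assembly factors (r = 0.84, rho 0.76) followed the member score over cows, and so did citric acid cycle genes (r = 0.75, rho 0.54), mitochondrial ribosomal proteins (r = 0.74, rho 0.71) and complex III assembly factors (r = 0.74, rho 0.67). Without niacin 15 and control 12 these were 0.70, 0.70, 0.48, 0.67 and 0.58. The electron carrier list holds CYC1, itself a complex III subunit. The regulators of biogenesis had r = 0.41, which was 0.04 without those cows, and the SLC25 carriers had 0.47, which was -0.12. Both relations therefore rested on those cows. Complex I, II and V assembly factors had r = 0.70, 0.35 and 0.69, cytosolic ribosomal proteins 0.21 and proteasome subunits 0.46. Without niacin 15 and control 12 these were 0.53, 0.42, 0.79, 0.58 and 0.43. The low r of the cytosolic ribosomal proteins thus also depended on those cows. In all, the member score was set against 21 measures.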

How the data were processed

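Liver RNA of 18 cows was measured on 18 arrays. The authors deposited log2 values, produced with Affymetrix Expression Console and RMA per the submitters' processing notes; neither version was given in the sources used here. RMA brings arrays to a like distribution, so a shift shared by most genes would not be seen. The platform annotation gave 18457 of 24333 probe sets 1 symbol, 688 several and 5188 none; 17996 were found by gene ID in RefSeq's ARS-UCD2.0 table, used for names and gene spans only.

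The dimmest 6083 probe sets (a share of 0.25, by mean over the arrays) were left out. The other 18250 were fitted with limma 3.58.1 in R 4.3.3 (lmFit, eBayes, niacin minus control, no covariate), with Benjamini-Hochberg adjustment at 0.05, two-sided, and with exact permutation tests in Python 3.11.15. Correlations used values with group means subtracted. Groups came from sample titles. Both procedures were tested on simulated data.

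The members, gene lists, role groups and tests were chosen with earlier results of these data known. The role groups, such as the complex IV tissue forms, were made after values were seen. Named members were, per complex, the 2 with the smallest p and the brightest; over all, the 5 largest and 5 smallest differences, the 3 highest and 3 lowest r, the tissue forms and members below the limit; others, such as NDUFA4, SDHD, UQCRC1, UQCRH and the ATP synthase subunits beside these, were named after their values were seen. In each list, the 2 smallest p were examined. Cell type lists covered hepatocytes, leukocytes, stellate cells and fibroblasts, endothelium, bile duct, red cells, muscle and adipocytes. Alternatives changed the filter, variance model, array weights, normalization, gene length trend, leukocyte covariate, probe set choice, test and cows. Promoter and protein sequences were not used here.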

Additional observations from a re-analysis of the deposited data

Results flagged for a closer look

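Niacin 15 lay far above the other niacin cows in 6 of 72 groups of 9 cows tested with Dixon's criterion, where 1 in 20 would be 3.6. Its ATP5MC3 was 9.61 with the next niacin cow at 9.19, its NDUFS3 was 8.74 with the next at 8.22, and its UQCRFS1 was 7.22 with the next at 6.69. Its complex III score was 8.756 (next 8.357), its complex IV score 7.588 (next 7.396) and its score of the complex IV common forms 8.347 (next 8.064). These scores share members, so the 6 values are not independent. NDUFS3 and UQCRFS1 were named for their difference and ATP5MC3 for its r in these same data, and a high cow can raise either. The 3.6 is therefore no fair expectation, and no conclusion is drawn from it. The 72 groups took in scores as well as single members, so they did not cover all 72 tested members. Members outside the 6 also stood high in niacin 15. Its COX5A was 9.04 with the next niacin cow at 8.38, its ATP5MC1 10.19 (next 9.59) and its NDUFA6 10.29 (next 9.73). These members were picked after their values were seen. The array median of niacin 15 was 5.66, within the range of the other arrays, and its slope over gene length was -0.067, the lowest of the 18. Its leukocyte score of 6.62 was the lowest of the niacin cows. The part of these measures in its values was not tested.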

How the results depend on the processing

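The count of members past an adjusted p of 0.05 was 0 in limma under every alternative run, with 1 past an unadjusted p in the reported setting. That unadjusted count was 3 after a second quantile normalization (NDUFV3, COX6B2 and ATP5PD), 3 with the leukocyte covariate (COX6B2, UQCRFS1 and ATP5MC3), and 0 to 2 with 1 cow left out. It was 1 in the other settings: COX6B2 with no filter, a stricter filter on dim probe sets, trend and robust variances, median centring or the mean over probe sets, ATP5PD with array weights or the length trend removed, and NDUFV3 by exact permutation or without control 1 and niacin 8. Differences near 0 changed sign. ATP5F1E was 0.027 as the mean over its probe sets and -0.082 to 0.003 with 1 cow left out. COX7A1 was -0.051 to 0.029, NDUFC2 -0.015 to 0.068 and NDUFV2 -0.102 to 0.000 with 1 cow left out. COX7A2L was -0.008 to 0.065 so, and -0.004 without control 1 and niacin 8. With the leukocyte covariate COX7C was 0.008, NDUFV2 0.004 and SDHA 0.025; SDHA was 0.012 with array weights and -0.052 to 0.028 with 1 cow left out. The cause was not tested. The score differences moved from the reported ones by less than 1 SD; that of complex III was 0.161 with the leukocyte covariate, that of complex I was -0.00 and that of complex V -0.01 with the length trend removed, and with 1 cow left out those of complexes I, II and V also took both signs. The correlation of tissue with common forms, an alternative set added after the data were seen, ran from -0.07 to 0.32 over those alternatives, and was 0.43 without niacin 39 and control 1. Among pairs of complexes, r ran from 0.52 to 0.96 over its alternatives, and from 0.48 to 0.92 without the 2 cows farthest from the median. No paired analysis was made, because the labels give no pairing of cows between the groups and the cow numbers do not overlap.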

Other observations

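Among probe sets outside the members, the 15 named genes with the highest r to the member score over the 18 cows were listed after their values were seen. GOT1, the cytosolic aspartate aminotransferase, had the highest r, 0.87. It was followed by TYW3 (0.86), PIGC (0.86), HINT3 (0.85) and ARG1, the arginase of the urea cycle (0.85). The list also held genes of the report's own lists, the complex III assembly factor UQCC1 (0.83) and the mitochondrial ribosomal protein MRPL34 (0.83). IMMT, which shapes the cristae (0.83), ASS1, which makes argininosuccinate (0.82), PTPMT1, a phosphatase of cardiolipin synthesis (0.82), and TIMM17B of the protein import channel (0.81) were among the others. The points share arrays and liver samples, and these r are descriptions.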
